A study of Mus musculus with 17 samples.

Results

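The oligodendrocyte lineage genes are 34 genes that mark the steps from an oligodendrocyte precursor cell to a myelinating oligodendrocyte, and they were read here in astrocyte libraries of the early postnatal mouse forebrain. The genes were chosen by name, from their known roles, but with earlier results of these data known. Each of the 34 matched 1 gene among the 26556 in the files. They fall into 5 role groups: 7 lineage transcription factors, 8 precursor genes, 5 committed and premyelinating genes, 10 myelin protein and membrane genes, and 4 enzymes of myelin lipid and acetylaspartate metabolism. The 17 RNA-seq libraries came from Gfap::GFP mice of the FVB background at postnatal day 7. There were 4 libraries from the primary somatosensory cortex (Cortex), 5 from the dorsolateral geniculate nucleus (dLG), 4 from the ventral posteromedial nucleus (VPM) and 4 from the ventral part of the medial geniculate nucleus (MGv). The 3 nuclei relay visual, somatosensory and auditory input, respectively. Each library pooled 4 brains, no group received a treatment, and every animal carried the transgene, in which Gfap control sequences drive green fluorescent protein. The sorted population is therefore whatever was green in the dissected tissue, and astrocytes were not selected by a second marker.

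Oligodendrocytes wrap axons with myelin, and they arise from dividing precursors that persist throughout the brain. Precursors carry the receptor for platelet-derived growth factor A and the proteoglycan NG2. On leaving the cell cycle they pass through a committed, premyelinating stage, and then switch on myelin proteins and the enzymes that make galactolipids. Olig2 and Sox10 act from the start of this path, and Myrf is needed for its last step. Some of these genes are not limited to the lineage: Olig2 is also known in thalamic astrocytes, Ptprz1 in astrocytes and radial glia, Itpr2 in astrocytes, and Cspg4 in pericytes. In the first postnatal week myelination of the forebrain is only beginning.

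Upstream sequence is shown for 5 members, because the clearest pattern below is a difference between VPM and the other nuclei that joins genes of several stages. For the precursor, premyelinating, myelin protein and lipid groups, the member is the one with the lowest p among those higher in VPM whose promoter had at least 150 bases free of annotated exons, and Ptprz1 stands for the members that were lower. The RefSeq promoter table (GRCm38.p6) held 27 of the 34 members, and the parts that overlap annotated exons are left out of the sequences shown. Each sequence reads 5′ to 3′ toward the gene. Capitals mark the letters ACAAAG or ACAATG on either strand, which resemble sites bound by Sox proteins.
Neu4, chr1:94020243-94020450, plus strand: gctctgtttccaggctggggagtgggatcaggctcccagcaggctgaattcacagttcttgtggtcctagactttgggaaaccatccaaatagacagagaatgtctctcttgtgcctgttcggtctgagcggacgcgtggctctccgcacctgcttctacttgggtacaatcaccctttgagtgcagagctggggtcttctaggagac
Enpp6, chr8:46986637-46986886, plus strand: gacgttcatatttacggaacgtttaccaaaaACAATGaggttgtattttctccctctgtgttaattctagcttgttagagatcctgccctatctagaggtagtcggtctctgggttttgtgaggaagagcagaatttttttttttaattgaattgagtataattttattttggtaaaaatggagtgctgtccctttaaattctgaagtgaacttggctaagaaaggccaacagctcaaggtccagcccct
Mobp, chr9:120149492-120149706, plus strand: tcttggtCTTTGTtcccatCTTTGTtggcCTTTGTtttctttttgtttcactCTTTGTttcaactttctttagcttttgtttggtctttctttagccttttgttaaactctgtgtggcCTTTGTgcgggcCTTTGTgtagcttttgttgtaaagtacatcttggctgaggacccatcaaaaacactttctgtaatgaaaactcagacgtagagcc
Ugt8a, chr3:125938653-125938902, minus strand: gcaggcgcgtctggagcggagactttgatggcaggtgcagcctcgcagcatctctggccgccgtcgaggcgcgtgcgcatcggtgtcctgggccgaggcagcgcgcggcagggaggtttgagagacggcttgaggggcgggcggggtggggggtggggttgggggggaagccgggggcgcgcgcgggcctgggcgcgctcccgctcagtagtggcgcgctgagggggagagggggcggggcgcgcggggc
Ptprz1, chr6:22875252-22875501, plus strand: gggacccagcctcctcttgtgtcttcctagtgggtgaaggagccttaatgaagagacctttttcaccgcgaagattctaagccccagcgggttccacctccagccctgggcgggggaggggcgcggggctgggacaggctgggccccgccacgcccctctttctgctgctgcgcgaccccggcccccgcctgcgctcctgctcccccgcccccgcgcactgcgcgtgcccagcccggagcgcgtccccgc
The Mobp stretch held 6 copies of ACAAAG, all read on the reverse strand as CTTTGT. It was the single promoter of 32851 with at least 6 copies, a cut taken from its own count. Copies over all promoters were counted in the full windows of 250 bases, including bases that overlap annotated exons. Among the members, 5 of 27 held ACAAAG in the full window and 5 of 27 held ACAATG (18.5% each), against 16.5% and 10.7% of all promoters. The palindrome CAGCTG, one of the E-box sequences, was in 2 of 27 member windows (7.4%) and in 13% of all. The printed stretches also differed in base composition, from a GC content of 38.4% for Enpp6 and 39.1% for Mobp to 71.6% for Ptprz1 and 76.8% for Ugt8a. These matches are letters in a window and no binding was measured.

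Library depth ranged from 18213687 to 50366363 counts, and values are CPM, the usual count scaled to library size (here with TMM factors), given in the order of the replicate letters a to d (a to e for dLG). Group values are the mean ± SD over the 4 libraries of Cortex, VPM or MGv and the 5 of dLG. Cortex a was by far the deepest, with 50366363 counts against 18213687 to 21519981 in the other libraries, and it detected the most genes. In genes detected, dLG c stood apart before any comparison, with 17749 against 21052 to 23365 in the other libraries. The library dLG c was also the only one of its series of library numbers. The p-values below measure the spread between libraries, each from a pool of brains. Whether libraries of different groups shared brains is not stated. Astrocyte markers were present in every group. Their summed level over 12 genes was 14254 to 14807 CPM in Cortex, 8688 to 10379 in dLG and 7154 to 9783 in VPM. In MGv it was 7098 to 9391 CPM in MGv a, b and d and 17151 in MGv c. Gfap itself was lowest in VPM, at 8.73, 18.9, 11.4 and 9.11 CPM, against 438, 453, 537 and 535 in Cortex.

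Transcripts of the members were abundant in these astrocyte libraries, although unevenly along the stages of the lineage. The members together made 15299 to 17551 CPM in Cortex, 15161 to 17230.2 in dLG, 15052 to 21488 in VPM and 15009.8 to 19094 in MGv, ranges that overlapped. Of the 34 members, 22 averaged over 100 CPM, 28 averaged over 10 CPM, and 30 had more than 3 counts in every library. In levels per kilobase of exon, which allow genes to be compared, the median member lay at the 92.6th percentile of all genes tested and 15 members lay above the 95th. Since these are bulk libraries, a larger share of cells of the lineage, more RNA per cell and expression in the astrocytes themselves cannot be told apart.

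Olig1 and Olig2, the paired helix-loop-helix factors of the lineage, stood highest, at 1521 and 449.9 CPM per kilobase. For comparison, the astrocyte genes Aldoc, Aqp4 and Slc1a3 averaged 319.8, 296 and 285 CPM per kilobase. Next came Cnp, a phosphodiesterase of uncompacted myelin, at 259, and Ptprz1, a receptor tyrosine phosphatase, at 253. The highest of the premyelinating genes was Bcas1 at 173, and the highest of the lipid enzymes was Gal3st1, which makes sulfatide, at 80.0. At the lower end were genes of late, mature myelin. Mobp averaged 0.523 CPM per kilobase, Ermn 0.183 and Opalin 0.0431. The Opalin count was 0 in 8 libraries and at most 11 in any, so that its level was at or near the limit of 3 counts, which corresponds to 0.0596 to 0.165 CPM depending on the library. Myelin proteins were thus spread over the whole range, with Cnp, Sirt2 and Mbp near the precursor genes and Mog, Mobp and Ermn far below them.

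**Figure D1:**
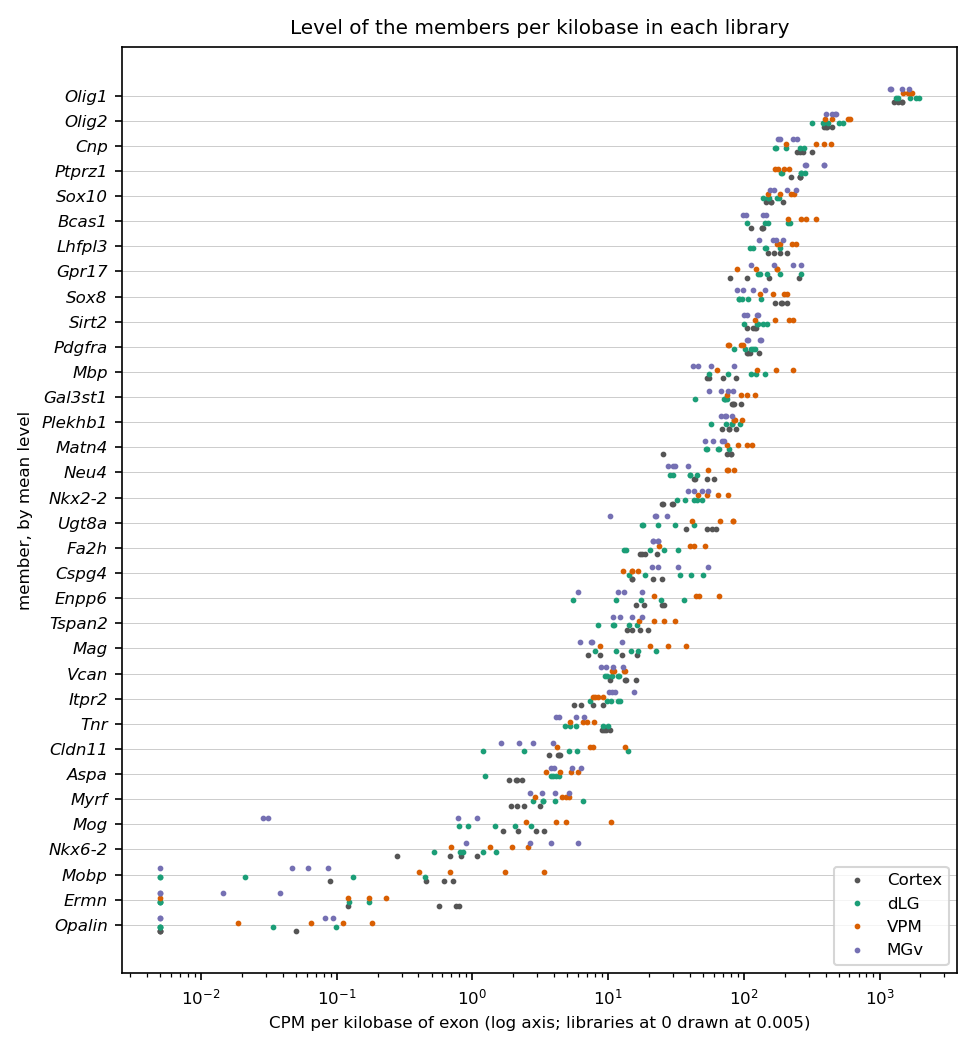
Level of each of the 34 members in every library, as CPM per kilobase of exon on a log axis, with one point per library coloured by group and members ordered by their mean. Olig1 and Olig2 lie at the top, and Mobp, Ermn and Opalin lie lowest, with several libraries at 0.

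The first comparison asked where thalamic and cortical astrocytes differ. Between the 13 thalamic and 4 cortical libraries, 6 of the 33 members tested passed an adjusted p of 0.1 (edgeR's quasi-likelihood test with Benjamini-Hochberg adjustment over all genes), against 11.4% of all 17856 genes tested. Nkx2-2, Myrf, Itpr2 and Aspa were higher in the thalamus, and Tnr and Ermn were lower. Higher calls were 4 of 33 against 5.45% of all genes, and lower calls were 2 of 33 against 5.93%. The median log2 fold change of the members was 0.15, beside 0.02 for all genes. Opalin was too low to be tested.

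Nkx2-2, a homeodomain factor of precursors entering differentiation (ENSMUSG00000027434, chr2:147177546-147194243 on the minus strand, GRCm38), was the clearest of these. It measured 86.3, 71.4, 73.3 and 84.8 CPM in Cortex, 129, 122, 92.1, 142 and 105 in dLG, 219.8, 133, 186 and 153 in VPM and 124, 156, 111 and 140.4 in MGv. Every thalamic library lay above every cortical one (log2 fold change 0.81 ± 0.19, adjusted p = 0.0090). No other tested member was higher in the thalamus without overlap, a pattern shared by 1.77% of all genes, and none was lower without overlap, against 3.01%. Myrf, the membrane-anchored factor that turns on myelin genes, measured 18.2, 16.4, 20.6 and 26.7 CPM in Cortex, 34.7, 23.9, 28.5, 28.2 and 56.1 in dLG, 44.3, 24.9, 39.3 and 41.6 in VPM and 28.0, 44.3, 22.6 and 34.6 in MGv (log2 fold change 0.75 ± 0.22, adjusted p = 0.044). The highest value was that of dLG e, and the groups overlapped only through Cortex d.

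Aspa hydrolyses N-acetylaspartate and releases acetate for myelin lipids. Its level was 13.7, 11.1, 12.4 and 12.7 CPM in Cortex, 22.6, 25.8, 7.34, 23.3 and 24.5 in dLG, 20.7, 35.6, 31.5 and 26.4 in VPM and 22.8, 32.3, 37.4 and 23.9 in MGv (log2 fold change 1.02 ± 0.27, adjusted p = 0.021). All thalamic libraries but dLG c exceeded the cortical ones. Itpr2, an inositol trisphosphate receptor that marks committed precursors, averaged 107 ± 23.1 CPM in Cortex and 151 ± 33.5 over the 13 thalamic libraries (log2 fold change 0.47 ± 0.17, adjusted p = 0.096), a difference just inside the threshold that 17 of 29 other settings did not keep.

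Tenascin-R, encoded by Tnr, is a matrix protein of the lineage. It measured 119, 116, 125 and 132 CPM in Cortex, 74.5, 67.8, 118, 61.9 and 128 in dLG, 102, 66.9, 90.2 and 84.4 in VPM and 52.9, 84.8, 56.3 and 75.1 in MGv (log2 fold change -0.60 ± 0.19, adjusted p = 0.052). Only dLG c and dLG e reached the cortical range. Ermn, which encodes the cytoskeletal protein ermin of late oligodendrocytes, had 21 to 59 counts in the cortical libraries and 0 in 6 of the 13 thalamic ones. Its CPM was 0.441 to 2.88 in Cortex and 0 to 0.836 in the thalamus (log2 fold change -3.02 ± 0.94, adjusted p = 0.054), so the change rests on few reads and its size depends on the prior count. Sox8, a SoxE factor that works beside Sox10, differed among the nuclei, and 10.6% of its exon bases overlap an antisense transcript (2810468N07Rik). It measured 583, 597, 526 and 647 CPM in Cortex, 288, 302, 337, 416 and 286 in dLG, 621, 409, 646 and 515 in VPM and 307, 279, 363 and 444 in MGv. The pooled difference missed the threshold with edgeR (log2 fold change -0.56 ± 0.21, adjusted p = 0.12). It passed with DESeq2, with at least 10 counts in every library, in the fit of 4 groups and without VPM a, c or d. VPM a, c and d were near the cortical level, whereas VPM b and the dLG and MGv libraries were below it. In the fit of 4 groups, Sox8 was lower than in Cortex in dLG (log2 fold change -0.88 ± 0.16, adjusted p = 0.0011) and in MGv (log2 fold change -0.80 ± 0.17, adjusted p = 0.0053), whereas in VPM the log2 fold change was -0.08 ± 0.17 with adjusted p = 0.91. These 3 contrasts share the cortical libraries.

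The regional calls depended on single libraries and on the series of library numbers. Leaving out Cortex a or Cortex b brought the higher calls from 4 to 2. Leaving out Cortex a brought the lower calls from 2 to 1, and without Cortex b, c or d no member was called lower. Within the first series (2 cortical and 8 thalamic libraries) 2 members were higher and 2 lower, namely Nkx2-2, Aspa, Tnr and Ermn. Within the second (2 and 4 libraries) none of the 33 passed with edgeR and 6 had an unadjusted p under 0.05. Astrocyte, neuron and dividing-cell markers also moved with region: 4 of 12 astrocyte markers were lower (Slc1a3, Aldoc, Mlc1 and Slc1a2) and 1 higher (S100b) in the thalamus, 3 of 12 neuron markers were higher (Slc17a6, Nefm and Nefl) and 1 lower (Rbfox3), and 5 of 6 dividing-cell markers were higher (Cenpf, Birc5, Mki67, Top2a and Cdk1). Of the mural cell and fibroblast markers Pdgfrb and Col1a2 were lower and Dcn higher, with sums of 55.0 to 96.1 CPM in Cortex and 14.0 to 50.4 in the thalamus. No microglia, endothelial or Schwann cell marker passed in this comparison, in which 11.4% of all genes passed. Summed dividing-cell markers were 388 to 497 CPM in Cortex and 450.2 to 714 in the thalamus. The part of these cells in the regional differences of the members was not tested.

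The second comparison set each thalamic nucleus against the mean of the others, and here VPM stood out. Of the 32 members tested, 17 were higher in VPM and 3 were lower, against 7.07% and 9.78% of the 17319 genes tested. The median log2 fold change of the members was 0.52, beside -0.02 for all genes. The higher members came from every role group, with 2 of 7 transcription factors, 3 of 8 precursor genes, 3 of 5 premyelinating genes, 6 of 8 tested myelin protein genes and 3 of 4 lipid and acetylaspartate enzymes. The lower ones, Pdgfra, Cspg4 and Ptprz1, were all precursor genes. Every tested myelin protein gene had a positive log2 fold change, from 0.24 for Plekhb1 to 4.35 for Mobp. Ermn and Opalin were not tested among the nuclei.

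Sums over a role group, given as a description with no test, are dominated by their most abundant genes. The 10 myelin protein and membrane genes made 5288, 2254, 3571 and 4425 CPM in VPM, against 2980.1, 1935, 2171, 3429 and 2790.4 in dLG and 1944, 1965, 2040.4 and 2621 in MGv. The 8 precursor genes made 5717, 5487, 5958 and 4969 CPM in VPM, 4968, 6845, 6461, 5296 and 6589 in dLG and 8117, 8922, 6362 and 7130.4 in MGv. The lower precursor sum in VPM rested on Ptprz1: without it the sum was 3155, 2411, 3126 and 2556 CPM in VPM, 2266, 2792, 2723, 2596 and 2820.3 in dLG and 2575, 3329.8, 2345 and 3016 in MGv. Summed transcription factors ranged over 5257 to 6806, 4548 to 6491 and 4600.3 to 5998 CPM in VPM, dLG and MGv, premyelinating genes over 1606 to 2896, 1579 to 2279.7 and 1438 to 2270.0, and lipid and acetylaspartate enzymes over 448 to 805, 244 to 463 and 314 to 354. The ratio of the myelin protein sum to the full precursor sum was 0.925, 0.411, 0.599 and 0.891 in VPM, 0.600, 0.283, 0.336, 0.648 and 0.423 in dLG, 0.240, 0.220, 0.321 and 0.368 in MGv and 0.369, 0.377, 0.360 and 0.466 in Cortex. VPM a and VPM d had the highest ratios of all 17 libraries, and VPM b lay within the range of dLG and Cortex. Without Ptprz1 the ratio was 1.68, 0.935, 1.14 and 1.73 in VPM, 1.32, 0.693, 0.798, 1.32 and 0.989 in dLG and 0.755, 0.590, 0.870 and 0.869 in MGv.

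**Figure D2:**
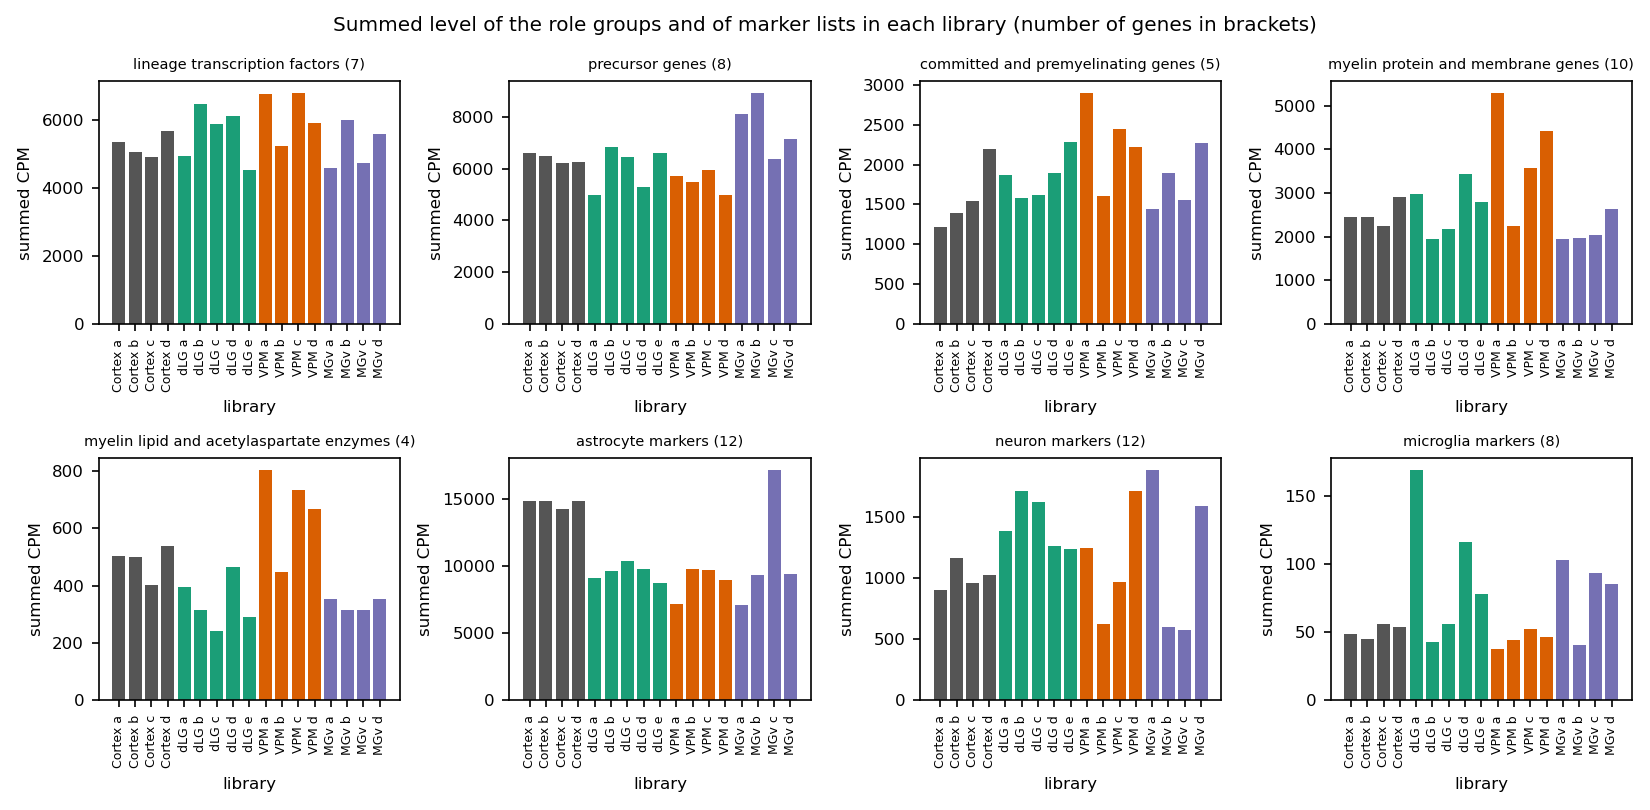
Summed CPM of the 5 role groups and of the astrocyte, neuron and microglia marker lists in each of the 17 libraries, with bars coloured by group and axes starting at 0. The myelin protein and lipid sums are highest in VPM a, c and d and lower in VPM b, and the microglia sums are high in dLG a and d and in MGv a, c and d.

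**Figure D3:**
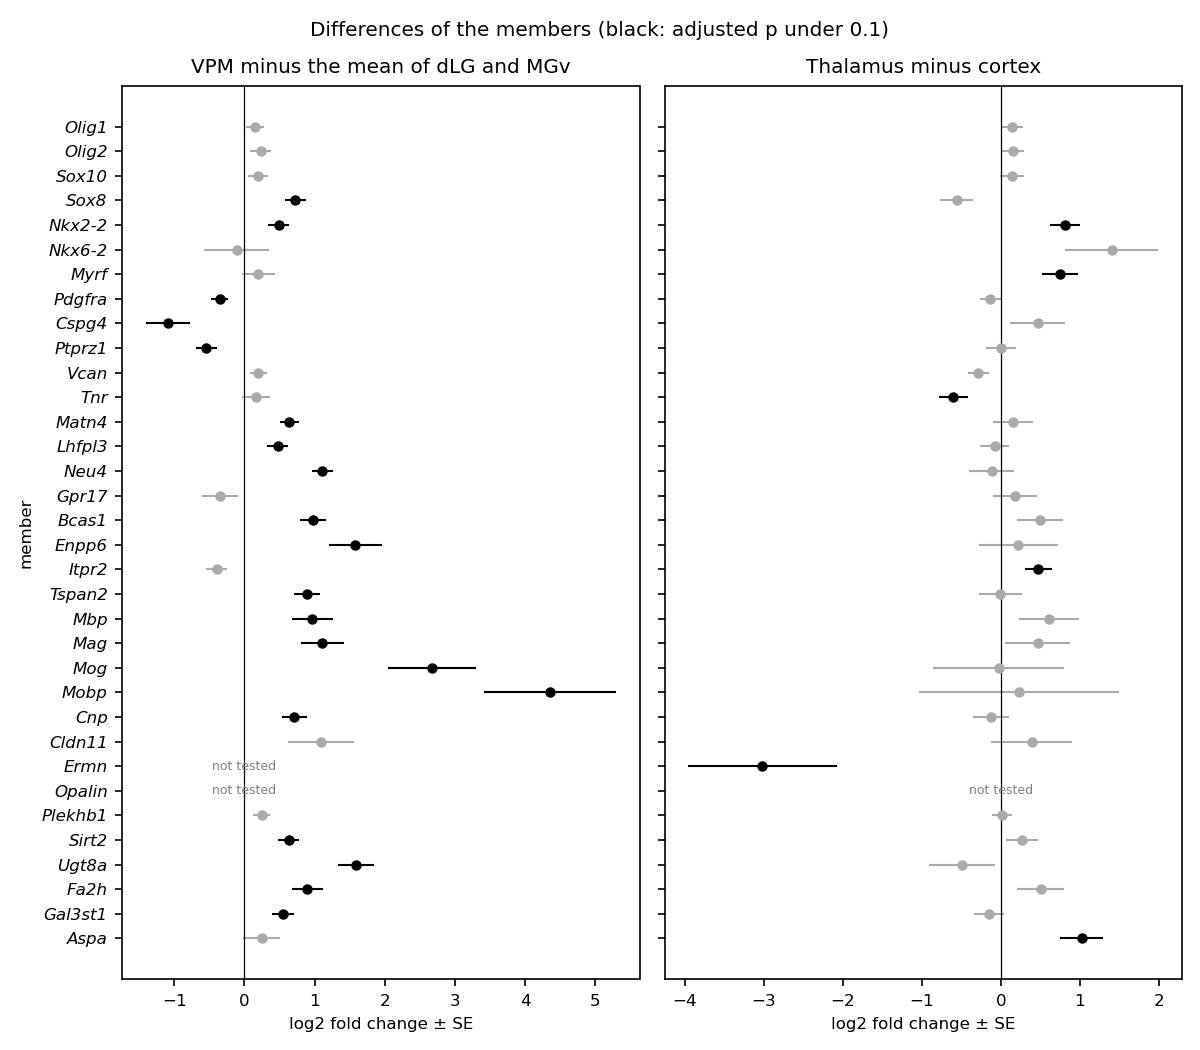
Log2 fold change ± SE of each member for VPM against the mean of dLG and MGv (left) and for thalamus against cortex (right), with members past the threshold in black. In VPM 17 members lie above 0 in black and 3 below, and in the thalamus 4 lie above and 2 below.

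Among the transcription factors, Sox8 (log2 fold change 0.73 ± 0.15, adjusted p = 0.010) and Nkx2-2 (log2 fold change 0.49 ± 0.15, adjusted p = 0.049) were higher in VPM. For the factors that define the lineage the call depended on the fit, since Olig1, Olig2 and Sox10 did not pass as fitted but passed once length and GC trends were removed (values below). Olig1 averaged 3541 ± 234 CPM in VPM, 3542 ± 604 in dLG, 2986 ± 463 in MGv and 3019 ± 198 in Cortex (log2 fold change 0.15 ± 0.13, adjusted p = 0.49). Its single values were 3649, 3223, 3767 and 3524 in VPM, 2969, 4229, 3993, 3645 and 2875 in dLG, 2639, 3558, 2583 and 3165 in MGv and 3170.3, 2938, 2776 and 3192 in Cortex, and the groups overlapped throughout. Olig2 ranged over 1007 to 1524 CPM in VPM, 800.2 to 1352 in dLG, 1021 to 1212 in MGv and 992 to 1135 in Cortex and did not pass (log2 fold change 0.23 ± 0.14, adjusted p = 0.33). Sox10, which works with both through most of the path, ranged over 459 to 721, 424 to 555, 479 to 742 and 448 to 588 CPM in the same order and did not pass either (log2 fold change 0.20 ± 0.14, adjusted p = 0.40). Nkx6-2, a homeodomain factor expressed as myelination proceeds, had the largest spread of this group and measured 3.71, 1.32, 2.56 and 4.89 CPM in VPM, 2.29, 1.64, 1.00, 2.85 and 1.54 in dLG, 1.70, 7.21, 11.4 and 5.09 in MGv and 0.526, 1.30, 2.08 and 1.56 in Cortex. Of its exon bases 12.9% overlap Inpp5a on the opposite strand. Its highest values were in MGv b, c and d, and it was higher in MGv than in Cortex in the fit of 4 groups (log2 fold change 2.19 ± 0.57, adjusted p = 0.019).

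The precursor genes split. Neu4, a sialidase of precursor cells (ENSMUSG00000034000, chr1:94020451-94028334 on the plus strand), was the member with the lowest p. It measured 393, 252, 349 and 355 CPM in VPM, 186, 141, 132, 208 and 185 in dLG, 139, 145, 128 and 181 in MGv and 249, 199, 202 and 279 in Cortex (log2 fold change 1.11 ± 0.14, adjusted p = 0.00077). All 4 VPM libraries exceeded all 9 of the other nuclei, which was true of no other tested member and of 2.7% of all genes tested. No member was lower in all VPM libraries, against 3.57% of all genes. Matn4, a matrix protein of the matrilin family, measured 544, 388, 592 and 467 CPM in VPM, 332, 342, 275, 403 and 274 in dLG and 308, 360.2, 266 and 368 in MGv (log2 fold change 0.64 ± 0.14, adjusted p = 0.013), and only dLG d exceeded VPM b. In Cortex it measured 419, 386, 131 and 418, where Cortex c lay far below the others. Lhfpl3, of the tetraspan-like LHFPL family, averaged 668 ± 105 CPM in VPM and 487 ± 95.5 over the other nuclei (log2 fold change 0.47 ± 0.15, adjusted p = 0.055), with 17.6% of its exon bases shared with a noncoding transcript on the opposite strand.

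Cspg4, which encodes the NG2 proteoglycan, went the other way. Its level was 178, 180.1, 197 and 154 CPM in VPM, 222, 407, 484, 169 and 592 in dLG, 250.1, 648, 276 and 390.3 in MGv and 178, 178, 299.8 and 257 in Cortex (log2 fold change -1.09 ± 0.32, adjusted p = 0.045). The VPM values were tight and the dLG and MGv values ranged widely, with dLG d as low as VPM. Ptprz1 measured 2561, 3076, 2832 and 2413 CPM in VPM, 2702, 4053, 3738, 2699 and 3769 in dLG, 5542, 5592, 4017 and 4114 in MGv and 3699, 3702, 3692 and 3167 in Cortex (log2 fold change -0.54 ± 0.15, adjusted p = 0.037). It was lowest in VPM and highest in MGv, although dLG a and d lay within the VPM range. Pdgfra, the receptor for platelet-derived growth factor A, averaged 872 ± 114 CPM in VPM against 1072 ± 144 in dLG and 1200.2 ± 152 in MGv (log2 fold change -0.35 ± 0.13, adjusted p = 0.087). The lower calls were fragile: with VPM a, c or d left out, none of the 3 passed. Vcan, which encodes the proteoglycan versican, ranged over 153 to 193 CPM in VPM and 128 to 188 in the other nuclei. Neither Vcan nor Tnr passed here (log2 fold changes 0.20 ± 0.12 and 0.16 ± 0.20).

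Of the 5 premyelinating genes, Bcas1, Enpp6 and Tspan2 were higher in VPM. Bcas1 marks newly formed oligodendrocytes (ENSMUSG00000013523, chr2:170346991-170427845 on the minus strand), and 12.6% of its exon bases overlap 2 antisense transcripts (Bcas1os1 and Bcas1os2). It measured 1274, 802, 989.8 and 1076 CPM in VPM, 803, 536, 399.6, 823 and 566 in dLG, 525, 369.6, 394 and 548 in MGv and 515, 514, 429 and 525 in Cortex (log2 fold change 0.98 ± 0.18, adjusted p = 0.0070). Only dLG a and d, each slightly above VPM b, overlapped the VPM range. Enpp6, a choline phosphodiesterase switched on as precursors differentiate, measured 422, 139.8, 298 and 285 CPM in VPM, 158, 73.4, 35.1, 232 and 111 in dLG, 84.2, 38.6, 75.9 and 114 in MGv and 118, 159.7, 104 and 165 in Cortex (log2 fold change 1.58 ± 0.38, adjusted p = 0.020). VPM a, c and d were above every other library, and VPM b fell among them. Tspan2, a tetraspanin of the differentiating cell, measured 148, 80.5, 122 and 103 CPM in VPM, 67.3, 52.4, 40.2, 77.6 and 51.5 in dLG, 71.7, 51.5, 58.5 and 84.7 in MGv and 65.5, 81.0, 71.3 and 93.0 in Cortex (log2 fold change 0.90 ± 0.18, adjusted p = 0.011), with VPM b just below MGv d and the other VPM libraries above all. Gpr17, a receptor carried briefly by committed precursors, did not follow them. It averaged 732 ± 226 CPM in VPM, 889 ± 295 in dLG, 1009.6 ± 349 in MGv and 770.4 ± 403 in Cortex, with wide spread in each group (log2 fold change -0.35 ± 0.25, adjusted p = 0.41).

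Of the 8 myelin protein genes tested 6 were higher in VPM, with the largest fold changes in Mobp and Mog, which are low. Mbp encodes myelin basic protein, which compacts the myelin sheath, and ranged over 539.7 to 1941 CPM in VPM, 472 to 1213 in dLG, 358 to 720.5 in MGv and 454 to 745 in Cortex (log2 fold change 0.97 ± 0.29, adjusted p = 0.048). VPM a and d were the highest of all libraries, whereas VPM b lay below the dLG mean. Mag, an adhesion protein that faces the axon, measured 153, 35.7, 82.3 and 113 CPM in VPM, 67.3, 32.4, 46.3, 91.0 and 59.9 in dLG, 25.2, 31.0, 30.5 and 51.4 in MGv and 29.2, 51.9, 35.7 and 66.0 in Cortex (log2 fold change 1.11 ± 0.31, adjusted p = 0.037), with the same order of the VPM libraries. Cnp measured 1609, 742, 1237 and 1417 CPM in VPM, 945, 618, 631, 1012 and 747 in dLG, 645, 675, 838 and 899.7 in MGv and 999.6, 939, 902 and 1166 in Cortex (log2 fold change 0.71 ± 0.18, adjusted p = 0.028). Cnp in VPM b was again inside the range of the other nuclei. Sirt2, a deacetylase abundant in myelin, measured 1159, 604, 853 and 1078 CPM in VPM, 694, 504, 628, 749 and 645 in dLG, 532, 625, 504 and 636 in MGv and 606, 586, 534 and 618 in Cortex (log2 fold change 0.63 ± 0.15, adjusted p = 0.022), and its 3 higher VPM libraries exceeded every other library.

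Mog and Mobp, proteins of later myelin, were low and rested on fewer reads. Mog had 18.0, 4.23, 8.37 and 7.00 CPM in VPM, 3.54, 1.35, 4.62, 2.50 and 1.59 in dLG, 0.0486, 0.0526, 1.33 and 1.84 in MGv and 2.88, 4.97, 3.71 and 5.71 in Cortex (log2 fold change 2.67 ± 0.62, adjusted p = 0.019). The values in MGv a and b were 1 count each, and VPM a alone had 387 counts. Mobp (ENSMUSG00000032517, chr9:120149707-120181484 on the plus strand) had 23.2, 2.74, 4.64 and 11.9 CPM in VPM, 0.143, 0, 0, 0.901 and 3.07 in dLG, 0, 0.421, 0.592 and 0.321 in MGv and 0.610, 3.14, 4.25 and 4.93 in Cortex (log2 fold change 4.35 ± 0.94, adjusted p = 0.014). It reached 500 and 249 counts in VPM a and d and 0 counts in dLG b, dLG c and MGv a. Its within-group SD on the log2 scale, 1.66, was the largest of the members. Cldn11, the claudin of myelin tight junctions, averaged 15.2 ± 7.15 CPM in VPM, 10.7 ± 9.32 in dLG and 4.94 ± 1.83 in MGv, with its highest value in dLG e. It did not pass with edgeR as fitted (log2 fold change 1.09 ± 0.47, adjusted p = 0.15). It was called higher in VPM by DESeq2, with the replicate block, without dLG e and within the first series of library numbers. Plekhb1 was nearly even at 327 ± 20.6 CPM in VPM and 282 ± 38.7 over the other nuclei (log2 fold change 0.24 ± 0.12, adjusted p = 0.20).

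All 3 enzymes of myelin galactolipids were higher in VPM. Ugt8a catalyses the step that makes galactocerebroside (ENSMUSG00000032854, chr3:125865271-125938619 on the minus strand). It measured 381, 189, 377 and 304 CPM in VPM, 140.0, 79.9, 107, 193 and 81.7 in dLG, 122, 46.5, 100.3 and 103 in MGv and 243, 265, 171 and 285 in Cortex (log2 fold change 1.59 ± 0.26, adjusted p = 0.0035). VPM and Cortex lay together above MGv, and among the other nuclei only dLG d reached the lowest VPM library. Fa2h, which hydroxylates the fatty acids of these lipids, measured 156, 71.4, 129.7 and 120.3 CPM in VPM, 77.4, 61.7, 40.6, 98.2 and 39.1 in dLG, 69.7, 64.8, 64.6 and 69.8 in MGv and 53.5, 56.3, 51.7 and 68.9 in Cortex (log2 fold change 0.90 ± 0.22, adjusted p = 0.024), and only dLG a and d exceeded VPM b. Gal3st1 measured 247, 152, 194 and 215 CPM in VPM, 155, 149, 89.1, 148 and 145 in dLG, 139, 171, 113 and 155 in MGv and 194, 169, 167 and 173 in Cortex (log2 fold change 0.55 ± 0.16, adjusted p = 0.045), with VPM b inside the range of the other nuclei. Aspa did not differ between VPM and the other nuclei beyond the threshold (log2 fold change 0.25 ± 0.27, adjusted p = 0.60).

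**Figure D4:**
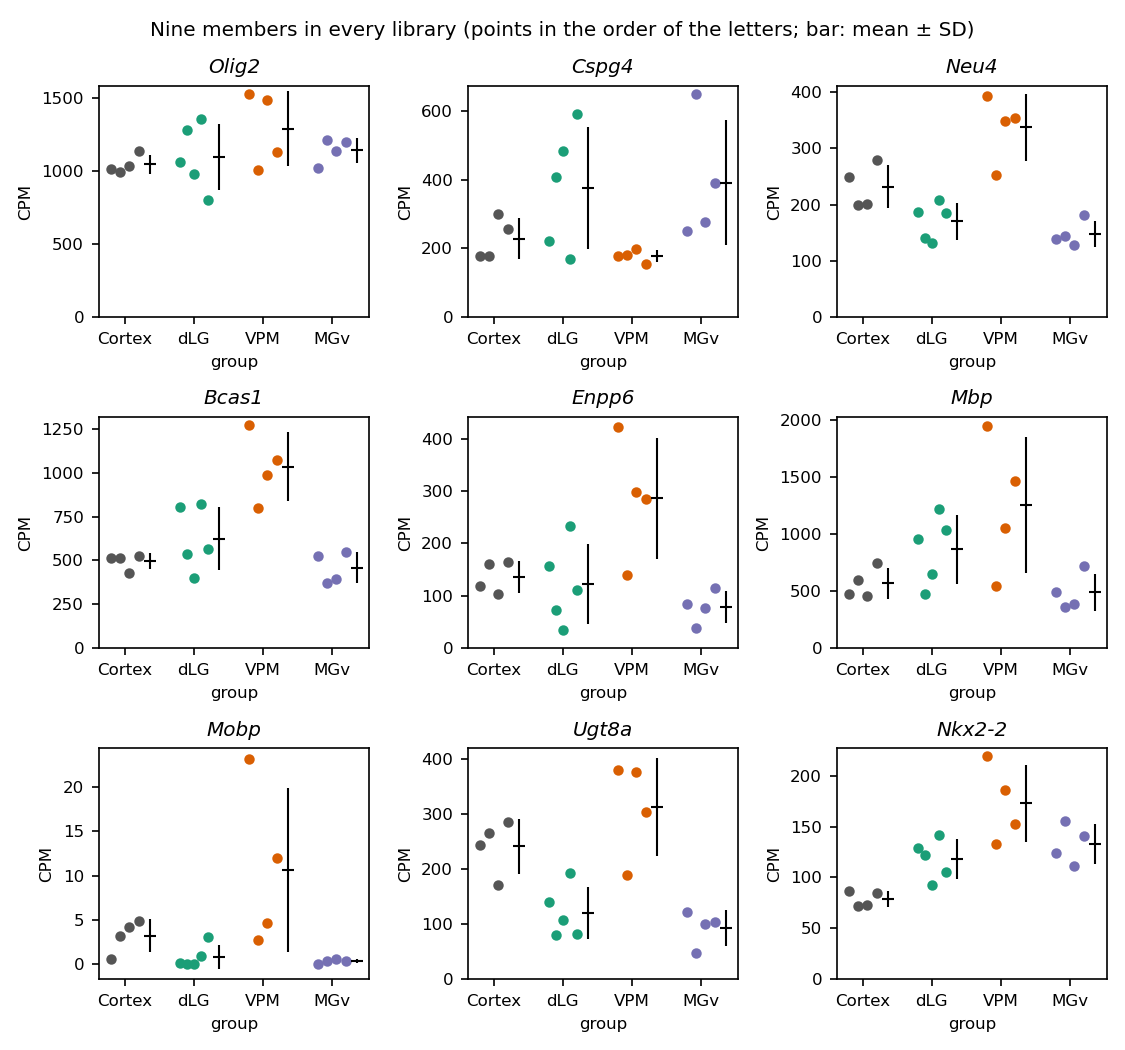
CPM of 9 members in every library by group, with points in the order of the replicate letters and the mean ± SD beside them. Neu4 in VPM (252 to 393 CPM) lies above all dLG and MGv libraries, Cspg4 is low and tight in VPM, Olig2 overlaps between all groups, and Enpp6, Mbp and Mobp show VPM b below the other VPM libraries.

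The VPM calls leaned on VPM a, and the length and GC composition of the libraries moved with the nucleus, although with overlap. Without VPM a, 8 members stayed higher (Neu4, Matn4, Bcas1, Tspan2, Ugt8a, Enpp6, Mobp and Sox8) and none was lower, whereas without VPM b 17 were higher and 2 lower. VPM a was the highest VPM library for 25 of 33 members and VPM b the lowest for 25 of 33. All 4 VPM libraries gave lower relative values for long genes (median log2 of long minus short genes -0.29 to -0.15) and for GC-rich genes (-0.40 to -0.11). The length index was -0.11 to 0.20 in dLG, -0.16 to 0.29 in MGv and -0.17 to 0.24 in Cortex. The GC index was -0.22 to 0.49, -0.09 to 0.70 and -0.31 to 0.04 in the same order. VPM thus overlapped MGv in length, dLG in GC and Cortex in both. With both indices as covariates no member passed and 5 of 32 had an unadjusted p under 0.05 with edgeR, while only 2 of all 17319 genes passed, so nucleus and library composition cannot be told apart in that fit. In another fit, each library's own trend over exon length and GC was removed instead. There 21 of 32 members were higher and none lower, against 7.25% and 4.82% of all genes. The 5 gained were Olig1, Olig2, Sox10, Myrf and Vcan, with log2 fold changes of 0.44, 0.43, 0.51, 0.66 and 0.42 and adjusted p = 0.052, 0.097, 0.022, 0.057 and 0.053. Of the 17 higher members 16 were shared with that fit, all but Lhfpl3, and the log2 fold change of Neu4 was 1.11, of Mbp 1.22 and of Ugt8a 1.41. Those of Cspg4 and Ptprz1 came to -0.38 and -0.30, with adjusted p = 0.31 and 0.17 by edgeR's quasi-likelihood test.

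Within the first series of library numbers, which holds 2 dLG, 2 VPM and 4 MGv libraries, 14 members were higher in VPM and none lower. Of all 18168 genes tested there, 1.94% were higher and 4.6% lower. In the second series, 2 VPM libraries could be set against 2 dLG libraries only. There no gene of 16389 passed with edgeR, and 2 of 32 members had an unadjusted p under 0.05. The log2 fold change of dLG against VPM in that series was -0.75 for Neu4, -1.09 for Ugt8a and -0.18 for Mbp, beside -1.12, -1.65 and -0.83 in the first. All MGv libraries belonged to the first series.

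Markers of other cell types differed between VPM and the other nuclei too, where 7.07% of all genes were higher in VPM and 9.78% lower. Of 8 microglia markers 7 were lower in VPM and none higher, with summed levels of 38.2 to 52.2 CPM in VPM and 40.9 to 169.6 in the others, and C1qa and C1qb were at 0 in dLG c. Of 12 astrocyte markers 3 were higher (Gjb6, S100b and Gja1) and 2 lower (Sox9 and Gfap). Gfap measured 1336, 99.1, 78.9, 971 and 222 CPM in dLG and 36.5, 610.3, 5731 and 1309 in MGv, all above the VPM values (log2 fold change -6.37 ± 1.26, adjusted p = 0.0095). Of 12 neuron markers 2 were higher (Slc17a7 and Nefm) and none lower, with sums of 623 to 1712 CPM in VPM and 574 to 1883 in the others. Among the remaining lists 1 dividing-cell marker was higher (Ccnb1), 1 mural cell and fibroblast marker was lower (Dcn), and no endothelial or Schwann cell marker passed. The part of these cells in the VPM differences of the members was not tested.

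In MGv fewer members passed than in VPM. Neu4, Bcas1 and Ugt8a were lower in MGv and Ptprz1 was higher, 3 and 1 of 32 members against 0.756% and 1.57% of all genes tested (2.33% in either direction). Their log2 fold changes were -0.71 ± 0.15 for Neu4 (adjusted p = 0.033), -0.83 ± 0.19 for Bcas1 (0.050), -1.08 ± 0.28 for Ugt8a (0.081) and 0.65 ± 0.14 for Ptprz1 (0.037), by edgeR's quasi-likelihood test. The median log2 fold change of the members was -0.28 and every tested myelin protein gene was negative, but none of them passed. No member had all MGv libraries above or all below the other nuclei, against 0.762% and 0.358% of all genes. This comparison shares its libraries with that of VPM. The count of lower members was 0 without MGv c, 1 without MGv b or VPM a, 6 without VPM b and 8 without dLG c, and Ptprz1 was not called higher without MGv a or MGv b. Without MGv a, Nkx6-2 was called higher instead. DESeq2 called 2 members higher and 8 lower, and with the replicate letter as a block 1 was higher and 7 lower.

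No member was called in dLG, with edgeR, in either direction (0.941% of all genes were higher, 0.214% lower and 1.15% either). There were 9 members with an unadjusted p under 0.05, and DESeq2 called Tspan2 lower. The median log2 fold change was -0.17, with 23 of 32 negative, and no member was without overlap in either direction, against 0.462% and 0.173% of all genes. Leaving out dLG d brought 3 lower calls, Tspan2, Lhfpl3 and Sox8.

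In pairs of groups, fitted over all 17 libraries, the members differed most between VPM and each of the other nuclei. dLG and VPM differed in 16 of 33 members, against 13.7% of all genes, with 15 higher in VPM and Cspg4 higher in dLG (all genes 5.76% and 7.93%). VPM and MGv differed in 18, against 15.4%, with 15 higher in VPM and Pdgfra, Ptprz1 and Cspg4 higher in MGv (all genes 7.4% and 7.97%). Between dLG and MGv none passed with edgeR, 7 had an unadjusted p under 0.05 and DESeq2 called Ptprz1 and Nkx6-2, both lower in dLG (1.02% of all genes passed). Against Cortex, 7 members differed in dLG, 9 in VPM and 11 in MGv, beside 19.4%, 9% and 15.4% of all genes. In dLG Nkx2-2, Itpr2 and Myrf were higher and Neu4, Ermn, Ugt8a and Sox8 lower (all genes 10.3% and 9.04%). All 9 that differed in VPM were higher there (all genes 3.56% higher and 5.44% lower), led by Nkx2-2 (log2 fold change 1.16 ± 0.17, adjusted p = 0.00015) and Bcas1 (log2 fold change 1.09 ± 0.21, adjusted p = 0.0020). In MGv 4 were higher and 7 lower (all genes 7.87% and 7.51%), with Ugt8a (log2 fold change -1.41 ± 0.31, adjusted p = 0.0059) and Sox8 lower and Nkx2-2 (log2 fold change 0.71 ± 0.17, adjusted p = 0.011) higher. The pairs share libraries with one another. Without VPM a the dLG and VPM count fell to 4, and without VPM c or d to 9. The VPM and Cortex count was 5 without VPM a, VPM d or Cortex c, and the dLG and Cortex count was 4 without Cortex b. Without MGv a 1 member passed between dLG and MGv.

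The spread between libraries of one group differed between role groups and was widest for genes of low level. The median within-group SD, in log2 CPM, was 0.24 for the transcription factors, 0.25 for the precursor genes, 0.33 for the premyelinating genes, 0.63 for the tested myelin protein genes and 0.45 for the lipid and acetylaspartate enzymes. It was 0.33 over the 33 tested members and 0.39 over all genes tested, or 0.28 over the 10266 of these above 10 CPM. Among the 28 members above 10 CPM, a limit chosen after seeing the data, it was 0.29 in all and 0.33 for both the 5 myelin protein genes and the 5 premyelinating genes. The most variable member of each group was Nkx6-2, Cspg4, Enpp6, Mobp and Ugt8a. Plekhb1 (0.18), Pdgfra (0.18) and Olig1 (0.19) were the steadiest. In Cortex, replicate d was highest for 21 of 33 members, in dLG replicate d for 18, and in MGv replicate d for 16.

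**Figure D5:**
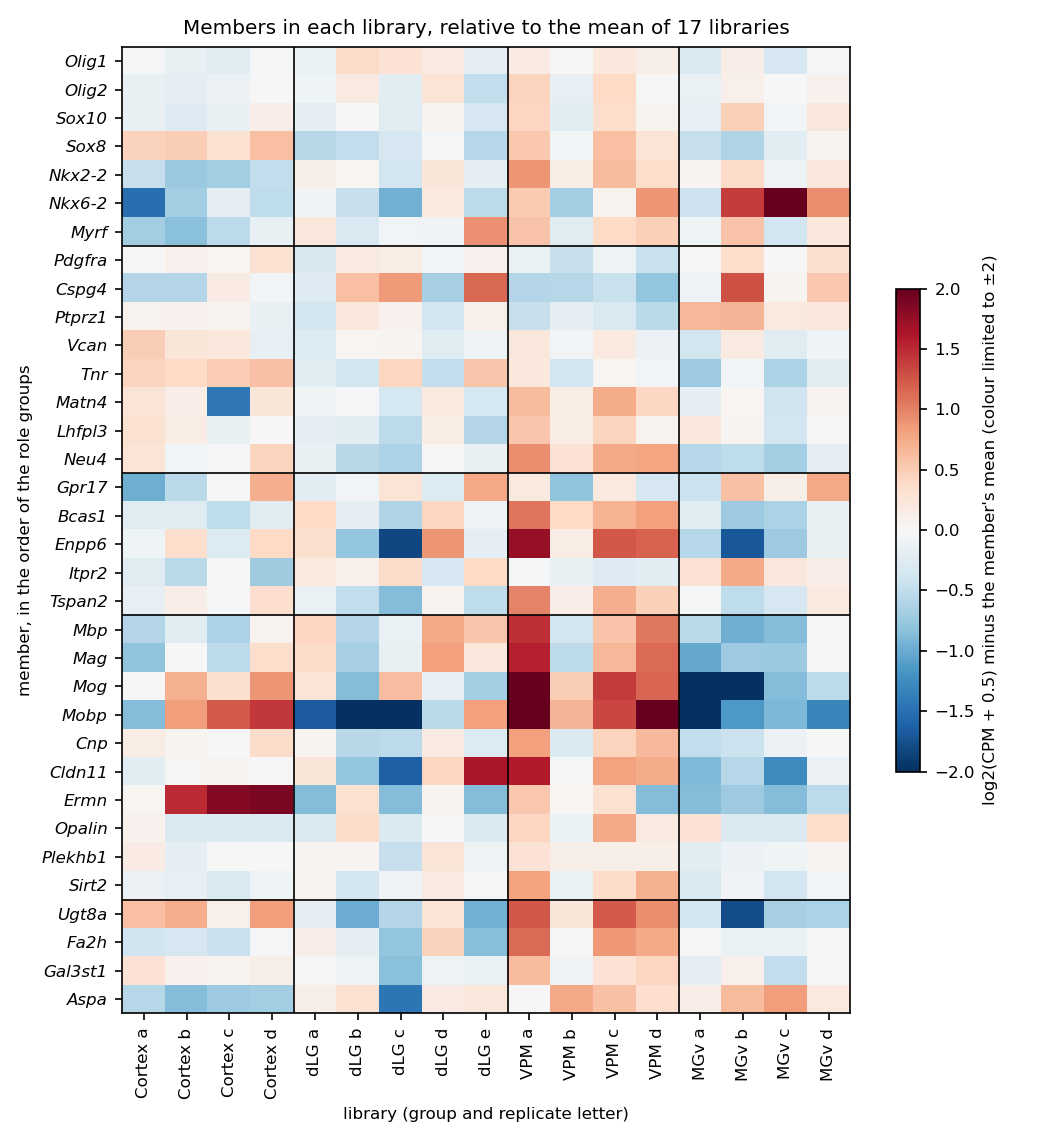
Each member (rows, in the order of the role groups, separated by lines) in each of the 17 libraries (columns), as log2(CPM + 0.5) minus the member's mean. VPM a, c and d are red over most premyelinating, myelin and lipid genes, VPM b is paler, and Olig1, Olig2 and Sox10 vary little.

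Other genes of the lineage, not among the 34, were read from 3 lists. Of all genes tested, 5.45% were higher and 5.93% lower in the thalamus, and 7.07% were higher and 9.78% lower in VPM. Of 26 further lineage regulators, 7 were higher and 1 lower in the thalamus, and in VPM 4 were higher and 9 lower than in the other nuclei. The 3 with the lowest p by region were Tcf12 (log2 fold change 0.86 ± 0.11, adjusted p = 1.4e-05), Tcf7l2 (log2 fold change 2.13 ± 0.28, adjusted p = 3.0e-05) and Cdkn1c (log2 fold change 1.56 ± 0.32, adjusted p = 0.0031), all higher in the thalamus. Tcf7l2 is not limited to the lineage, since the study named it among thalamic neuron genes that thalamic astrocytes also express. Of the 23 tested further myelin and membrane genes, 7 were higher and 2 lower in VPM. In the thalamus 2 were higher and 1 lower, or 13% called, near the 11.4% of all genes. By region these were Cd9 (log2 fold change -1.10 ± 0.21, adjusted p = 0.0016), Tspan15 (log2 fold change 0.40 ± 0.13, adjusted p = 0.080) and Gjb1 (log2 fold change 0.48 ± 0.17, adjusted p = 0.085). Of 23 tested growth factors and receptors, 3 were higher and 6 lower in the thalamus. They were led by Pdgfrb (log2 fold change -3.74 ± 0.45, adjusted p = 1.2e-05), which also marks mural cells, and Igf1 (log2 fold change 3.58 ± 0.56, adjusted p = 0.00025), followed by Pdgfa, the ligand of the receptor encoded by Pdgfra (log2 fold change 1.03 ± 0.17, adjusted p = 0.00042), and Nrg1 (log2 fold change -0.92 ± 0.22, adjusted p = 0.0098). In VPM 3 were higher and 3 lower.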

How the data were processed

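RNA of sorted Gfap::GFP-positive cells was amplified with the SMARTer Ultra Low kit, and NEBNext libraries were sequenced as 50-base single reads. The deposited values are raw gene counts, 1 table per library; per the labels and the study's methods the authors aligned reads to mm10 with STAR 2.7.0d and counted them with featureCounts of Subread 1.6.4, without a stated strand setting. Genes had at least 10 counts over the series. No column of another sample was used (0). Symbols of 26548 genes matched GENCODE vM21, which gave positions and exon lengths, and 8 did not.

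Groups came from the labels, and the threshold was an adjusted p under 0.1. Genes were filtered with filterByExpr, scaled by TMM and tested with edgeR 4.0.16 (robust quasi-likelihood, Benjamini-Hochberg adjustment over all genes tested) in R 4.3.3. Region was fitted with 2 groups over 17 libraries, nuclei with 3 groups over 13 libraries, and pairs with 4 groups over 17. A prior count of 2 applied to the log2 CPM used for the spread and for the length and GC trends. Fitted log2 fold changes used edgeR's default prior count, and folds of genes near 0 depend on it. DESeq2 1.42.0, RLE factors, other filters, a threshold of 0.05, the replicate letter as a block, the series of library numbers as a covariate or within series, and leaving out each library were the alternatives, with length and GC corrections and the nuclei within a series added after seeing the data. The routines were tested on simulated counts. The limit taken for a count of 0 was 3 counts and covers counting error only.

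The members and all lists were chosen with earlier results of these data known. Values in every library are given for members past the threshold by region or nucleus (at most 20, by lowest p) and for the highest per kilobase and the most variable of each role group, 22 in all. The replicate letters did not pair the libraries: deviations of libraries with the same letter correlated at -0.16 to 0.22, and 4 of 17 libraries matched best a library of their own letter. Some genes of the further lists are not reported here by name.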

Additional observations from a re-analysis of the deposited data

Results flagged for a closer look

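In 88 sets of values, each a named member in 1 group, the highest or lowest library was compared with the others by Dixon's test. Of the 88, 5 stood apart, a share close to the 5%, or 1 in 20, that chance gives. In Cortex, Ptprz1 was 3167 CPM in replicate d, against 3692 to 3702 in the other 3. Matn4 was 131 CPM in Cortex c, against 386 to 419, and Bcas1 was 429 CPM in the same library, against 514 to 525. In dLG, replicate c, the library with the fewest genes detected, was low for Gal3st1 (89.1 CPM, against 145 to 155) and for Aspa (7.34 CPM, against 22.6 to 25.8). Without dLG c, the log2 fold change of Aspa between thalamus and cortex was 1.11 (adjusted p = 0.00018).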

How the results depend on the processing

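Counts of members are given here against the count reported for each comparison. For higher in the thalamus (4), the count was 2 within the first series of library numbers, 0 within the second and 2 to 4 with single libraries left out. For lower in the thalamus (2), it was 0 at a threshold of 0.05, 1 with the replicate letter as a block, 4 in the fit of 4 groups, 0 within the second series and 0 to 3 with libraries left out. For VPM, the length and GC indices as covariates left 0 of 17 higher, 0 of 3 lower and 0 of 20 in all, and the lower count was also 0 with the length and GC trend removed and within the first series. Leaving out libraries gave 8 to 18 higher, 0 to 4 lower and 8 to 22 in all. For higher in MGv (1), the count was 2 with DESeq2, 0 with the series as a covariate, 0 with the length and GC covariates, 0 within the first series and 0 to 1 with libraries left out. For lower in MGv (3), it was 1 at a threshold of 0.05, 8 with DESeq2, 5 with at least 10 counts in every library, 7 with the replicate block, 0 with the length and GC covariates, 6 with the trend removed and 0 to 8 with libraries left out. For lower in dLG (0), it was 1 with DESeq2 and 0 to 3 with libraries left out. For pairs, dLG and VPM (16) gave 0 with the covariates, 0 within the second series and 4 to 19 with libraries left out. dLG and MGv (0) gave 2 with DESeq2 and 0 to 1. dLG and Cortex (7) gave 3 at a threshold of 0.05 and 4 to 10. VPM and MGv (18) gave 1 with the covariates and 12 to 22, VPM and Cortex (9) gave 5 to 12, and MGv and Cortex (11) gave 9 to 13. The 7 reversals of sign all arose in VPM with the length and GC covariates: Nkx2-2 came to -0.02, Bcas1 to -0.03, Pdgfra to 0.04, Enpp6 to -0.54, Mobp to -1.33, Gal3st1 to -0.20 and Mbp to -0.15 on the log2 scale. The cause of these changes was not tested. With the replicate block, 27 of 30 calls of single members kept their side of the threshold, and no other count moved by more than 1.5 times; the block absorbs dLG e, the only library of its letter, and the series covariate absorbs dLG c. Depth limits mainly Mog, Mobp, Ermn and Opalin.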
